A study of Mus musculus with 10 samples.

Results

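The 39 genes described here encode the clotting factors, the inhibitors of clotting, the enzymes of fibrinolysis and the complement proteins that the liver releases into plasma. They were chosen by name, with earlier results of these data known. Each was found once among the 53392 genes of the deposited table by its GENCODE M21 symbol (39 of 39, all protein-coding). RNA was sequenced from frozen livers of C57BL/6 mice at an age of 24 weeks, 5 wild type (WT, replicates 1 to 5) and 5 in which hepatic Fbp1 was deleted (Fbp1-deleted, replicates 6 to 10). The product of Fbp1, fructose bisphosphatase, works in gluconeogenesis. No source used here gives the promoter or Cre behind the deletion, the sex, the litters or the hour of collection. The series asked how the loss of hepatic Fbp1 changes liver expression, and the single comparison is Fbp1-deleted against WT.

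Clotting runs through a chain of serine proteases in which each enzyme activates the next. Tissue factor with factor VII starts it, the contact enzymes can feed it, and thrombin at its end turns fibrinogen into fibrin. Antithrombin, heparin cofactor II, protein C and protein S restrain the chain, and plasmin dissolves the clot. Complement is a second protease chain, started by antibody, by sugar-binding lectins or by spontaneous turnover of C3, and it ends in a pore built from C5b, C6, C7, C8 and C9. Hepatocytes make most of these plasma proteins, while factor VIII comes chiefly from endothelial cells.

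Libraries held between 17778395 and 23894812 estimated counts. Levels are counts-per-million (CPM) after TMM scaling, and changes are log2 values, negative where Fbp1-deleted liver was lower, with the standard error (SE) of an edgeR quasi-likelihood fit over all 15392 genes tested. A gene is called at a Benjamini-Hochberg adjusted p under 0.05 over all genes. Fbp1 itself stood at 778 to 1050.3 CPM in WT and at 7.38 to 13.4 CPM in Fbp1-deleted liver, as the labels say of all 10 libraries. The 8 hepatocyte markers summed to 56803 to 101792 CPM in WT and 96661 to 108388 CPM in Fbp1-deleted liver, and 3 of them were called higher (Cps1, Pck1 and Tat). All 10 libraries held Xist, the RNA of the inactive X chromosome, at 341.7 CPM or more, while each of 4 transcripts of the Y chromosome stayed at 1.77 CPM or less. In bulk liver, fewer cells of a type and less RNA per cell cannot be told apart.

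Proximal promoter sequences of 8 members are shown because the list of liver transcription factors read further on includes HNF1, HNF4, C/EBP and STAT factors. Each line gives the 90 bases from 120 to 31 bases before the RefSeq transcription start (GRCm38.p6), 5′ to 3′ in the direction of the gene. The first 3 belong to members that fell, and the others to members with a match to an HNF1, HNF4, C/EBP or STAT motif, printed in capitals.
F7 (chr8:13025914-13026003, plus strand): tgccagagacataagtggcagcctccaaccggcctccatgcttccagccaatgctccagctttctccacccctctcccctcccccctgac
Serpind1 (chr16:17331251-17331340, plus strand): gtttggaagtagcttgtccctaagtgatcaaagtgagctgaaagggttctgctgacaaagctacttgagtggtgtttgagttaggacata
Mbl2 (chr19:30232808-30232897, plus strand): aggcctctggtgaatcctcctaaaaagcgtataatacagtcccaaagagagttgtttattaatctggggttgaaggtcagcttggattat
F9 (chrX:59999344-59999433, plus strand): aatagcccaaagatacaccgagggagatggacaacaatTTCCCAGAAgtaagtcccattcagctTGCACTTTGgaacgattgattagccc
C3 (chr17:57228167-57228256, minus strand): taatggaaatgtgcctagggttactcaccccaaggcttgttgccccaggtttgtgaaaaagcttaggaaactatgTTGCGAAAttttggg
F13b (chr1:139501587-139501676, plus strand): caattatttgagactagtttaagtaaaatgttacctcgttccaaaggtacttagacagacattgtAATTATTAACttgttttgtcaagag
C4bp (chr1:130661649-130661738, minus strand): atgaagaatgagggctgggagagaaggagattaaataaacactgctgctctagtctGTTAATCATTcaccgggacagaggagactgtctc
Hc (chr2:35061443-35061532, minus strand): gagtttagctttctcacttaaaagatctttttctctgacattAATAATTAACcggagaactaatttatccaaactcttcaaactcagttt

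Windows of 250 bases before the start were available for 30 of the 39 members, 31 windows in all since C8g has a pair of starts. Both strands were searched for 5 motifs. The HNF1 letters (GTTAAT, then any base, then ATT) were found in 3 member windows (C4bp, F13b and Hc) and in 0.371% of 32851 RefSeq windows of the same length. The C/EBP letters TTGCGNAA were found in C3 alone among member windows and in 0.6697% of all windows. The HNF4 letters CAAAGTNCA were found in F9 alone and in 1.19% of all windows. The STAT letters TTCNNNGAA were found in 6 member windows (Fga, Fgb, C8a, Masp2, Pros1 and F9) and in 7.02% of all. The TATA letters TATAAA were found in 2 (Hc and Klkb1) and in 12.4% of all. Among the 14119 windows of tested genes the shares were 0.333% (HNF1), 1.01% (C/EBP), 1.18% (HNF4), 6.18% (STAT) and 7.30% (TATA). In no member window did matches to different motifs overlap. None of these letters was found in the windows of the 4 called members with a window, F7, Serpind1, Serpinf2 and Mbl2, which says only that they are not within these 250 bases.

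Of the 39 genes, 5 fell and 0 rose in Fbp1-deleted liver. Those that fell were C2 of the complement convertase, the clotting factor gene F7, the inhibitor genes Serpind1 and Serpinf2, and the lectin gene Mbl2. All 39 had passed the filter on low counts. The share called lower, 12.8%, was close to the 10% of all genes tested that were called lower, so it is no result about these genes as a group. Of all genes tested, 10.6% were called higher and 20.6% in either direction. At an unadjusted p under 0.05, 12 members were lower and 1 (Pros1) was higher, where 16.8% of all genes tested were lower and 17.8% higher. DESeq2 called 9 members lower and 0 higher, against 11% and 12.2% of all genes. For limma-voom these were 7 and 0 members, against 10.1% and 10.1% of all genes. The fitted change was negative in 34 of 39 members (87.2%) and in 49.1% of all genes tested, with a median of -0.19 for the members and 0.01 for all genes. No member's fitted change reached 1.5-fold, and a test against that fold called 0.

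The count of negative changes depended on a pair of WT livers. Without WT replicates 3 and 4, left out together after the data were seen, 20 of 39 changes were negative, the median was -0.07, and 3 members were called lower (Klkb1, Mbl2 and C2) and 3 higher (Pros1, C9 and C4bp). The calls of F7, Serpind1 and Serpinf2 ended in that fit (adjusted p = 0.06304, 0.0658 and 0.09002, edgeR), though their changes of -0.33, -0.38 and -0.42 were close to the -0.33, -0.38 and -0.44 with all 10 livers. These WT libraries were chosen because the acute phase transcripts Saa1 and Lcn2 were highest in them. Saa1 stood at 282 and 259 CPM there, against 30.99 to 34.7 CPM in the other 3. The number called lower also moved with single libraries. It was 1 without Fbp1-deleted replicate 6, 7 or 9 or WT replicate 2, 2 without WT replicate 5, and 8 without Fbp1-deleted replicate 8. With library totals or upper quartile scaling in place of TMM, 12 members were called lower, while higher calls made up 37.7% and 40.3% of all calls in place of 51.5%.

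**Figure D1:**
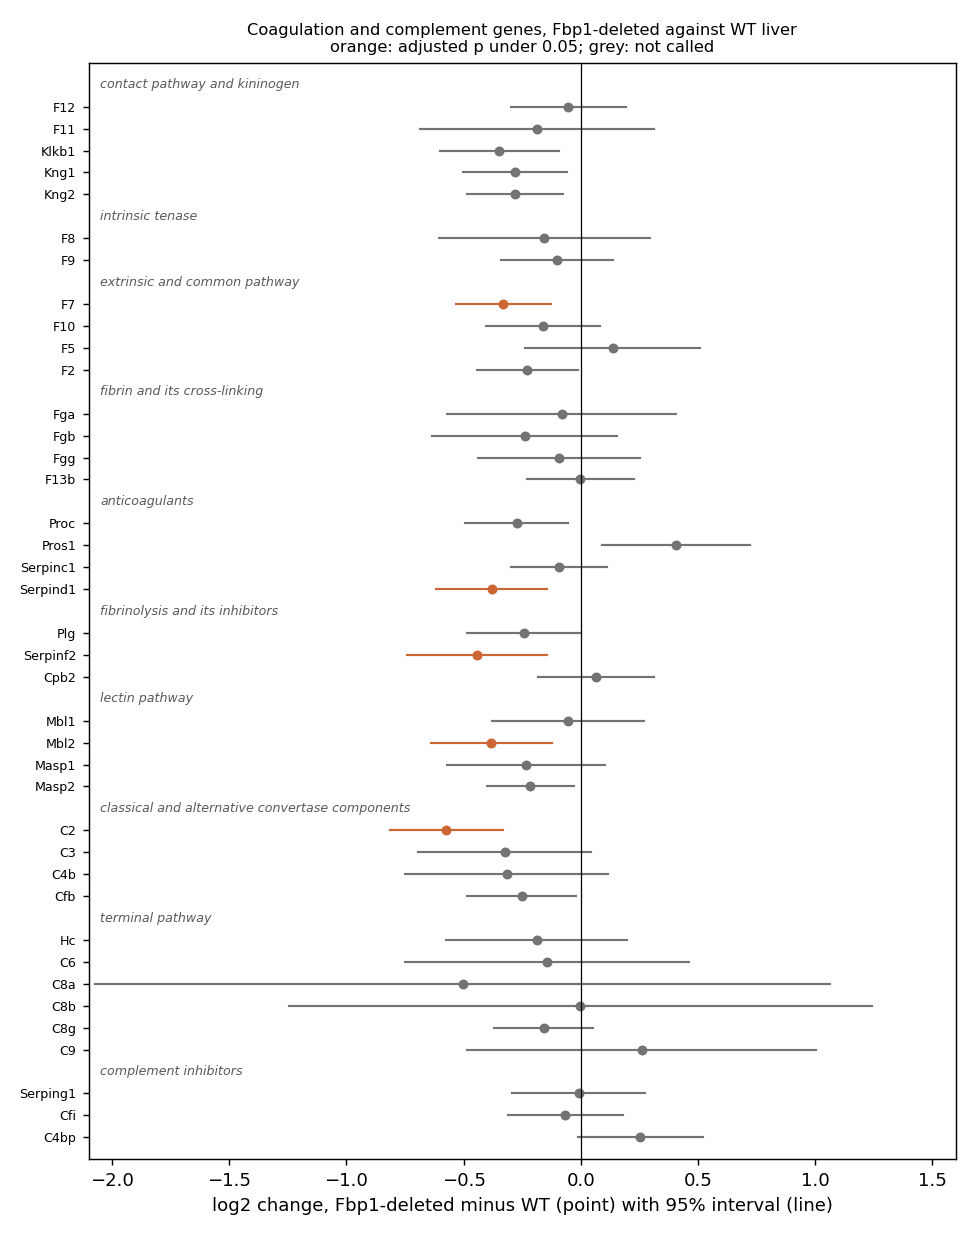
Log2 change of each of the 39 genes (horizontal axis, Fbp1-deleted minus WT) with its 95% interval, grouped by role; orange marks the 5 genes called lower and grey those not called. Most points lie left of 0 by less than 0.5, and C8a, C8b and C9 have the widest intervals.

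Per kilobase of principal transcript, the scale on which levels of different genes are compared, C3 was the most abundant member in WT at 2147 ± 576 CPM per kb (SD, n = 5). Fgg, Fga, F2 and Kng1 followed at 1977, 1459, 1126 and 1044 CPM per kb. The length was that of the longest principal transcript, 3810 bases for Fgb and 4970 for Serpinc1, so this order also depends on annotated lengths. The lowest were F8 at 0.707, C6 at 5.55 and Pros1 at 14.5 CPM per kb. Together the members took 4.34 ± 0.676% of a WT library and 3.54 ± 0.377% of an Fbp1-deleted library (SD, n = 5), with ranges of 3.41 to 4.99% and 3.24 to 4.19% that overlapped. C3 alone accounted for 11025 CPM of this in WT.

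**Figure D2:**
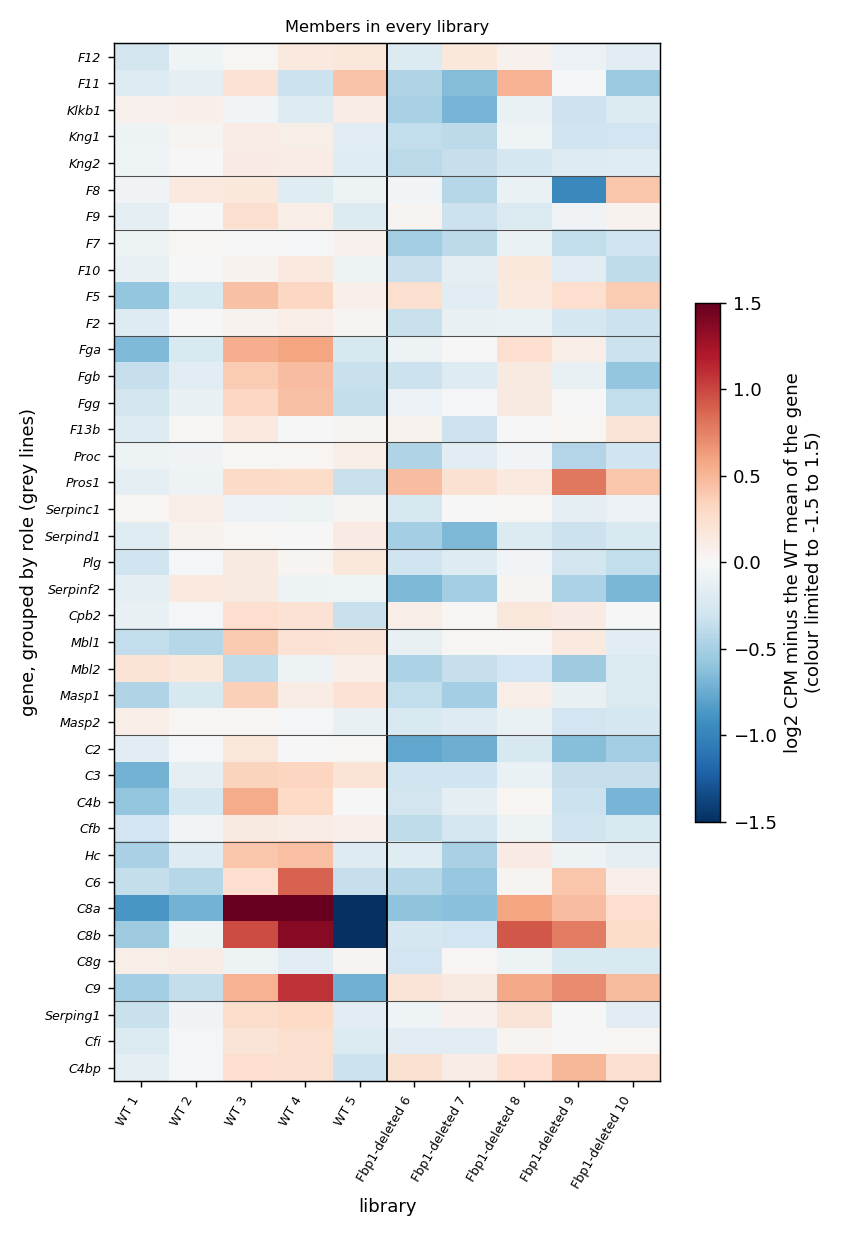
Log2 CPM of each member (rows, grouped by role) in each library (columns) minus the WT mean of that gene; red is above and blue below the WT mean. WT replicates 3 and 4 are red for most genes, and Fbp1-deleted replicate 8 is less blue than replicates 6 and 7.

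The contact system of clotting had no called member (edgeR), while 5 of its 5 fitted changes were negative. F12, F11 and Klkb1 encode factor XII, factor XI and plasma prekallikrein, the proteases of this branch. Kng1 and Kng2 encode kininogens, the cofactor from which kallikrein cuts bradykinin. Kng1 stood at 1799, 1964, 2051, 2019 and 1704 CPM in WT and at 1471, 1446, 1819, 1552 and 1562 CPM in Fbp1-deleted liver. In 4 of 5 Fbp1-deleted livers Kng1 was below every WT liver, and replicate 8 was not. The change was -0.28 (SE 0.10, adjusted p = 0.0681, edgeR). Kng2 stood at 278, 294, 318, 316 and 256 CPM in WT and at 219, 229.7, 244, 254 and 256 CPM in Fbp1-deleted liver, a change of -0.28 (SE 0.10, adjusted p = 0.0525, edgeR). Again 4 of 5 Fbp1-deleted livers were below all WT livers, and replicate 10, with the highest value, lay just above the lowest WT liver.

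The kininogen paralogs share 30.6% of the 31-base words of Kng2 transcripts, so the split of reads between them rests on the authors' counting model. The log2 ratio of Kng2 to Kng1 was -2.71 ± 0.03 in WT and -2.70 ± 0.12 in Fbp1-deleted liver (SD, n = 5, exact permutation p = 0.944, adjusted p = 0.976). Klkb1 had a change of -0.35 (SE 0.12, adjusted p = 0.0514, edgeR), with WT at 205 to 252 CPM and Fbp1-deleted liver at 144 to 218 CPM. F12 and F11 had changes of -0.05 and -0.19 (adjusted p = 0.781 and 0.605, edgeR). Klkb1 shares 43.2% of its words, chiefly with the read-through gene model Gm45753, which held at most 6.07 CPM. At an unadjusted p under 0.05, 3 of these 5 genes were lower, against the 16.8% of all genes given above, and DESeq2 called 3 and limma-voom 2 of them lower.

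Calls in the contact group hung on single livers. Without Fbp1-deleted replicate 8, Klkb1 and Kng1 were called lower (adjusted p = 0.0208 and 0.02998, edgeR). Klkb1 was also called without Fbp1-deleted replicate 10 or WT replicate 4 (adjusted p = 0.04998 and 0.0389), and Kng2 without WT replicate 5 (adjusted p = 0.0364).

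Among the factors that follow, F7 fell. F7 encodes factor VII, which binds tissue factor to start clotting, and lies on chromosome 8, 13026034 to 13035809, plus strand (ENSMUSG00000031443.7, GRCm38). It stood at 177, 189.8, 188, 183 and 194 CPM in WT and at 130.2, 141, 174, 145 and 152 CPM in Fbp1-deleted liver. The groups did not overlap, and Fbp1-deleted replicate 8 was again the nearest to WT. The change was -0.33 (SE 0.09, adjusted p = 0.0249, edgeR), from 186 ± 6.39 to 148 ± 16.1 CPM (SD, n = 5). Leaving out Fbp1-deleted replicate 6, 7 or 9 or WT replicate 2 or 5 ended the call (adjusted p = 0.0522 to 0.0776, edgeR), as did leaving out the filter on low counts (adjusted p = 0.0651). Of all genes tested, 6.89% had every Fbp1-deleted library below every WT library and 6.57% every one above. Among the members 3 of 39 lay wholly below (F7, Serpind1 and C2) and 0 above.

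F10, the gene of factor X, begins at 13037308 on the same strand of chromosome 8, just after F7 ends. Its change was -0.16 (SE 0.11, 95% interval -0.40 to 0.08, adjusted p = 0.342, edgeR). F2, which encodes prothrombin, went from 2238 ± 172 to 1912 ± 152 CPM (SD, n = 5) without passing (change -0.23, adjusted p = 0.125, edgeR). F5, the cofactor of activated factor X, had a positive change of 0.14 (95% interval -0.24 to 0.51). F9, the protease of the intrinsic branch, had a change of -0.10 (95% interval -0.34 to 0.14). F8 encodes its cofactor, factor VIII, and was the least abundant member per kb. F8 stood at 6.64, 7.64, 7.69, 6.06 and 6.53 CPM in WT and at 6.71, 5.13, 6.45, 3.52 and 9.203 CPM in Fbp1-deleted liver, a change of -0.16 (SE 0.21, adjusted p = 0.639, edgeR). Its lowest and its highest value were both in Fbp1-deleted livers, in replicates 9 and 10.

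**Figure D3:**
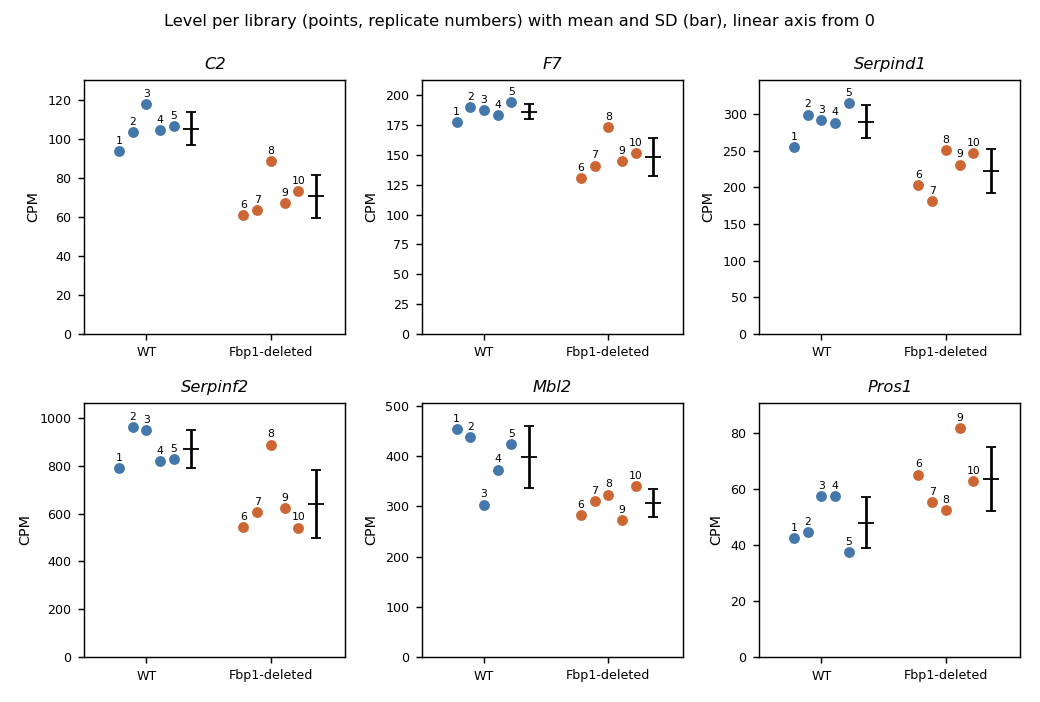
Level in CPM (vertical axes from 0) of the 5 genes that fell and of Pros1 in each library, numbered by replicate, with the mean and SD of each group (n = 5) as black bars. C2, F7 and Serpind1 do not overlap between groups, while Fbp1-deleted replicate 8 reaches the WT range for Serpinf2.

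Fibrinogen transcripts were abundant and did not pass the test. Fga, Fgb and Fgg encode the 3 chains of fibrinogen and lie side by side on chromosome 3. Fga stood at 2244, 3039, 5199, 5383 and 3007 CPM in WT and at 3392, 3548, 4244, 3814 and 2847 CPM in Fbp1-deleted liver. WT replicates 3 and 4 were the 2 highest and WT replicate 1 the lowest of all 10 livers, so the Fbp1-deleted range lay inside the WT range. The changes of Fga, Fgb and Fgg were -0.08, -0.24 and -0.09, with adjusted p between 0.384 and 0.832 (edgeR). The interval for Fga, -0.57 to 0.41, shows the size of change these 10 livers could not tell from none. F13b, the carrier subunit of the fibrin cross-linking enzyme, had a change near 0 (95% interval -0.23 to 0.23). None of these 4 genes had an unadjusted p under 0.05, and DESeq2 and limma-voom called 0 of them.

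Of the 4 natural anticoagulants 1 fell and 0 rose (edgeR), and Pros1 alone had a positive change. Serpind1, which encodes heparin cofactor II, an inhibitor of thrombin, fell. It lies on chromosome 16, 17331371 to 17343575, plus strand (ENSMUSG00000022766.14). It stood at 255, 299, 292, 288 and 314 CPM in WT and at 203, 181, 251, 231 and 247 CPM in Fbp1-deleted liver, without overlap. The change was -0.38 (SE 0.11, adjusted p = 0.0254, edgeR). The libraries whose removal ended the call were those named for F7 (adjusted p = 0.0516 to 0.0745, edgeR).

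Serpinc1, the gene of antithrombin and the most abundant inhibitor of this group per kb, had a change of -0.09 (95% interval -0.30 to 0.11). It shares 35.6% of its words with other genes, chiefly Zbtb37 on the other strand, and this library type does not keep the strand. Proc, which encodes protein C, had a change of -0.27 (SE 0.10, adjusted p = 0.0753, edgeR) and was called lower without Fbp1-deleted replicate 8 (adjusted p = 0.02897). Pros1 encodes protein S, the cofactor of protein C, and had the largest positive change of the 39. Pros1 stood at 42.6, 44.7, 57.6, 57.4 and 37.5 CPM in WT and at 65.2, 55.4, 52.4, 81.9 and 62.8 CPM in Fbp1-deleted liver. The values of 3 Fbp1-deleted livers exceeded the highest WT liver, and replicates 7 and 8 lay among the WT values. Its change was 0.41 (SE 0.15, adjusted p = 0.06599, edgeR), and it was called higher without Fbp1-deleted replicate 8, WT replicate 3 or WT replicate 4 (adjusted p = 0.0337, 0.0472 and 0.0396).

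Fibrinolysis was represented by Plg, Serpinf2 and Cpb2. Serpinf2 encodes the plasmin inhibitor alpha-2-antiplasmin, lies on chromosome 11, 75431732 to 75439591, minus strand (ENSMUSG00000038224.12), and fell. It stood at 791, 963, 951, 821 and 828 CPM in WT and at 544, 605, 889.6, 624.9 and 541 CPM in Fbp1-deleted liver. Fbp1-deleted replicate 8, at 889.6 CPM, lay inside the WT range, and the other 4 lay below every WT liver. The change was -0.44 (SE 0.14, adjusted p = 0.0373, edgeR) and -0.59 without replicate 8 (adjusted p = 0.00172). It was not called without any 1 of Fbp1-deleted replicates 6, 7, 9 and 10 or WT replicates 2, 3 and 5 (adjusted p = 0.0546 to 0.103). Plg, the gene of plasminogen, went from 2735 ± 331 to 2313 ± 211 CPM (SD, n = 5; change -0.24, adjusted p = 0.148, edgeR), and shares 10.6% of its words with Slc22a3. Cpb2, a carboxypeptidase that slows clot breakdown, had a change of 0.07 (95% interval -0.18 to 0.31).

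In the lectin pathway of complement, Mbl2 fell and its paralog Mbl1 did not pass. Both encode mannose-binding lectins, which recognise sugars on microbes and carry the MASP proteases. Mbl2 lies on chromosome 19, 30232942 to 30239687, plus strand (ENSMUSG00000024863.5). It stood at 454, 439, 304, 374 and 424 CPM in WT and at 283, 311, 323, 273 and 341 CPM in Fbp1-deleted liver. WT replicate 3 was the lowest WT liver and lay within the Fbp1-deleted range. The change was -0.38 (SE 0.12, adjusted p = 0.0379, edgeR). Leaving out Fbp1-deleted replicate 6, 7 or 9 or WT replicate 1, 2 or 5 ended the call (adjusted p = 0.0652 to 0.101, edgeR), while it held without WT replicates 3 and 4 (adjusted p = 0.007803).

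Mbl1 had a change of -0.05 (95% interval -0.38 to 0.27), but the difference between the lectins was not itself detected. The log2 ratio of Mbl2 to Mbl1 was 1.81 ± 0.58 in WT and 1.46 ± 0.23 in Fbp1-deleted liver (SD, n = 5), with an exact permutation p = 0.262 and adjusted p = 0.393. Masp1 and Masp2, the proteases, had changes of -0.23 and -0.21 (adjusted p = 0.322 and 0.0922, edgeR). In 4 of 5 Fbp1-deleted livers Masp2 was below every WT liver. Masp2 shares 53.3% of its words with Tardbp on the other strand, so its counts are uncertain.

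C2 had the smallest p of the 39. It encodes the protease of the convertase that antibody and lectins assemble on a target, and lies on chromosome 17, 34862604 to 34898265, minus strand (ENSMUSG00000024371.14). It stood at 94.02, 104, 118, 105 and 107 CPM in WT and at 61.1, 63.5, 88.7, 67.3 and 73.3 CPM in Fbp1-deleted liver. Every Fbp1-deleted liver was below every WT liver, with replicate 8 the nearest. The change was -0.57 (SE 0.11, adjusted p = 0.00337, edgeR), from 105 ± 8.57 to 70.8 ± 11.01 CPM (SD, n = 5). C2 was called with each of the 10 libraries left out in turn, with adjusted p between 0.0004204 and 0.0142, and without WT replicates 3 and 4 (adjusted p = 0.0173).

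C2 shares 44.4% of its words with other genes, chiefly the read-through model Gm20547, which also spans Cfb. Gm20547 held 0.704 to 2.41 CPM in WT and 0.2395 to 2.04 CPM in Fbp1-deleted liver. Cfb, the gene of factor B, is the counterpart of C2 in the alternative pathway and its neighbour on chromosome 17. It went from 1345 ± 155 to 1129.6 ± 86.3 CPM (SD, n = 5), a change of -0.25 (SE 0.11, adjusted p = 0.114, edgeR), and was called lower without WT replicate 1 (adjusted p = 0.04003). Cfb shares 75.5% of its words, chiefly with the same model.

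C3 is the protein on which all complement routes converge. It stood at 6498, 9623, 13456, 13282 and 12265 CPM in WT and at 8674, 8631, 9958, 8399.9 and 8381 CPM in Fbp1-deleted liver. WT replicate 1 was the lowest of all 10 livers and the other 4 WT livers ranged up to 13456 CPM, while the Fbp1-deleted livers lay close together. The change was -0.32 (SE 0.17, adjusted p = 0.203, edgeR) and -0.47 without WT replicate 1 (adjusted p = 0.0204). C4b, the substrate that the classical and lectin proteases cut, had a change of -0.32 (95% interval -0.75 to 0.12). It shares 48.3% of its words with its paralog C4a, which is described below.

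The terminal genes showed the widest spread between livers of the same group. C8a encodes a chain of C8, part of the membrane pore. C8a stood at 56.2, 62.6, 293, 339 and 32.5 CPM in WT and at 67.4, 66.6, 154, 141 and 123 CPM in Fbp1-deleted liver, a 10.4-fold range among WT livers. C8b, which encodes another chain, stood at 40.8, 56.3, 117, 153 and 17.7 CPM in WT and at 49.9, 48.4, 113, 101 and 71.6 CPM in Fbp1-deleted liver. WT replicates 3 and 4 were high and WT replicate 5 lowest for both genes. C9, whose product forms the ring of the pore, stood at 59.04, 65.5, 120.5, 178 and 50.9 CPM in WT and at 96.2, 92.5, 125, 137 and 117 CPM in Fbp1-deleted liver. For all 3 genes the Fbp1-deleted values lay inside the WT range.

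The changes of C8a, C8b and C9 were -0.50 (SE 0.69), near 0 (SE 0.55) and 0.26 (SE 0.33), with adjusted p between 0.626 and 0.999 (edgeR). C9 was called higher without WT replicates 3 and 4, with a change of 0.96 (adjusted p = 0.00155). C8g, which encodes the third chain of C8, did not share the spread and stood at 310.2 to 376 CPM in WT and 283 to 354 CPM in Fbp1-deleted liver. Hc, the gene of C5, and C6 had changes of -0.19 and -0.14 with intervals of -0.57 to 0.20 and -0.75 to 0.46. None of the 6 terminal genes had an unadjusted p under 0.05, and DESeq2 and limma-voom called 0 of them.

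**Figure D4:**
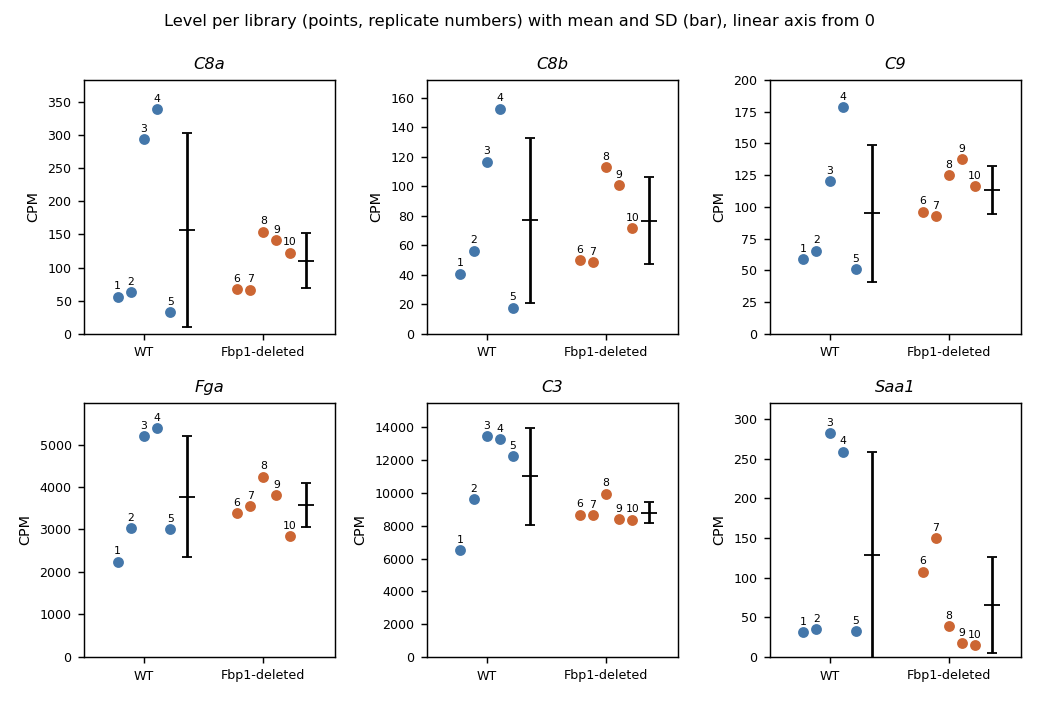
Level in CPM (vertical axes from 0) of C8a, C8b, C9, Fga, C3 and the acute phase transcript Saa1 in each library, numbered by replicate, with mean and SD (n = 5) as black bars, cut at 0 for Saa1. WT replicates 3 and 4 are the highest WT livers in each panel, while Fbp1-deleted replicates 6 and 7 have the highest Saa1 of their group but the lowest C8a, C8b and C9.

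The spread among WT livers ran across many members. In 27 of 39 genes the highest WT liver was replicate 3 or 4, and in 20 the lowest was replicate 1. The highest WT liver exceeded the lowest by more than 2-fold for 8 members, namely F5, Fga, C3, C4b, C6, C8a, C8b and C9. Saa1 stood at 30.99, 34.7, 282, 259 and 32.5 CPM in WT and at 107, 149.9, 38.8, 16.9 and 14.7 CPM in Fbp1-deleted liver. Lcn2, another acute phase transcript, stood at 8.07, 9.398, 115, 59.3 and 8.74 CPM in WT and at 32.4, 42.9, 12.5, 18.3 and 8.38 CPM in Fbp1-deleted liver. Dbp, an output gene of the circadian clock, stood at 193, 184, 62.9, 63.7 and 166 CPM in WT and at 28.98, 36.4, 70.1, 21.97 and 31.03 CPM in Fbp1-deleted liver. Dbp was also called lower in Fbp1-deleted liver (change -1.83, SE 0.44, adjusted p = 0.0189, edgeR), and the hour of collection is not known here. In WT, Cyp3a41a stood at 589, 495, 99.5, 3.17 and 1889 CPM and Sult2a1 at 374, 358, 87.2, 1.69 and 470 CPM. In Fbp1-deleted liver, Cyp3a41a stood at 265, 196, 46.5, 20.7 and 25.7 CPM and Sult2a1 at 306, 284, 24.7, 6.68 and 10.7 CPM. These genes of a cytochrome P450 and a sulfotransferase were not called (edgeR). Among WT livers, the same replicates 3 and 4 were thus highest in Saa1 and Lcn2 and lowest in Dbp, Cyp3a41a and Sult2a1. All these transcripts were chosen after their values were seen, and their part in the members' values was not tested. Among Fbp1-deleted livers, replicate 8 had the highest value in 26 of 39 members and replicate 7 the lowest in 15.

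None of the 3 inhibitors of complement was called by edgeR. Serping1 encodes the C1 inhibitor, which also blocks kallikrein and factor XII, and had a change of -0.01 (95% interval -0.29 to 0.27). Cfi, the protease that cuts C3b and C4b, had a change of -0.06 (95% interval -0.31 to 0.18). C4bp, which binds C4b for that cut, went from 276 ± 46.6 to 329 ± 34.01 CPM (SD, n = 5), a change of 0.26 (SE 0.12, adjusted p = 0.164, edgeR). C4bp was called higher only in the fit without WT replicates 3 and 4 (adjusted p = 0.0285). None of the 3 had an unadjusted p under 0.05, and DESeq2 and limma-voom called 0 of them.

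Ratios within a library do not depend on scaling between libraries, and 12 were compared by an exact two-sided permutation test over all 252 splits of 5 against 5. After adjustment 0 of 12 passed, while 3 had an unadjusted p under 0.05. The smallest p this permutation test can give is 0.00794, so 1 ratio alone could not pass after adjustment over 12. That 0 passed therefore does not show that the ratios were alike. The log2 ratio of Proc to Pros1 was 3.48 ± 0.28 in WT and 2.79 ± 0.41 in Fbp1-deleted liver (SD, n = 5, exact permutation p = 0.0238, adjusted p = 0.143). That of C4b to C4bp was 2.67 ± 0.34 and 2.12 ± 0.33 (SD, n = 5, exact permutation p = 0.0397, adjusted p = 0.159). That of Fgb to Fga was 0.11 ± 0.20 and -0.10 ± 0.06 (SD, n = 5, exact permutation p = 0.0238, adjusted p = 0.143). In each of these 3 the groups overlapped. Without WT replicate 1, 2 ratios passed, F2 to Serpinc1 and C3 to Cfi (adjusted p = 0.0476 for each).

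The rest of the clotting pathway was read from a list of 33 other genes, of which 31 were tested. Of these 2 rose and 5 fell, with a median change of -0.10. Vkorc1l1, a relative of the vitamin K reductase that keeps clotting factors carboxylated, rose from 32.96 ± 4.11 to 71.4 ± 6.42 CPM (SD, n = 5; change 1.11, adjusted p = 2.67e-05, edgeR). Lman1, the receptor that carries factors V and VIII out of the endoplasmic reticulum, rose by 0.68 (SE 0.12, adjusted p = 0.00193, edgeR). Gas6, a vitamin K-dependent ligand related to protein S, fell from 70.6 ± 11.6 to 30.2 ± 7.76 CPM (SD, n = 5; change -1.22, adjusted p = 0.000599, edgeR). Thpo, which encodes the platelet growth factor thrombopoietin, fell by 0.70 in log2 units (adjusted p = 0.00396, edgeR). Proz, the gene of protein Z, fell by 0.57 in log2 units (adjusted p = 0.00577, edgeR). Hrg and Serpina10 were the other genes that fell. Without Fbp1-deleted replicate 9, 3 genes of this list were called lower.

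Among 30 other complement genes, 26 were tested, 1 rose and 8 fell, with a median change of -0.23. C4a, the paralog of C4b, fell from 16.5 ± 3.66 to 7.64 ± 1.68 CPM (SD, n = 5; change -1.10, adjusted p = 0.00109, edgeR) and did not overlap between groups. The words it shares with C4b leave its counts uncertain. C1qb and C1qc, chains of the C1q recognition protein made by macrophages, fell, with changes of -0.47 and -0.52 (adjusted p = 0.0111 and 0.0151, edgeR). Cfp, the gene of properdin, and Vsig4, a complement receptor of Kupffer cells, fell, with changes of -0.49 and -0.48 (adjusted p = 0.01105 and 0.02001, edgeR). Vsig4 was not called without Fbp1-deleted replicate 6 or 9 (adjusted p = 0.0519 to 0.0574, edgeR). Of 8 Kupffer cell markers 4 were called lower (Timd4, Cd5l, Vsig4 and C1qa). Their sum was 251 to 338 CPM in WT and 191 to 272 CPM in Fbp1-deleted liver, and its part in these falls was not tested. The number of this list called lower was 4 without Fbp1-deleted replicate 6 or 9 and 5 without Fbp1-deleted replicate 7 or WT replicate 2, 3 or 5. The gene that rose, Colec10, which encodes a collectin of the lectin pathway, was not called without any 1 of Fbp1-deleted replicates 6, 9 and 10 and WT replicates 2, 4 and 5.

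Of 26 liver transcription factors 10 fell and 1 rose (Cebpd, a C/EBP factor). The smallest adjusted p belonged to Foxa2, a forkhead factor of liver chromatin, which fell from 33.4 ± 6.499 to 7.64 ± 2.92 CPM (SD, n = 5; change -2.12, adjusted p = 0.000128, edgeR). The interferon regulatory factor Irf1 and the homeobox factors Prox1 and Onecut1 followed, with changes of -1.52, -0.62 and -2.98 (adjusted p = 0.000538, 0.00438 and 0.00526, edgeR). No motif of Foxa2, Irf1, Prox1 or Onecut1 was among those searched above. The members whose windows above hold the HNF1 letters, C4bp, F13b and Hc, had changes of 0.26, near 0 and -0.19, and none was called in this fit. The gene C3, whose window holds the C/EBP letters, and F9, whose window holds those of HNF4, were not called either. Of 28 genes of the interleukin 6 and acute phase list, 4 fell (Apcs, Orm3, Saa4 and Saa3, changes of -1.14, -1.30, -1.16 and -0.83) and 1 rose (Jak1, 0.35). The call of Saa3 was lost without WT replicates 3 and 4 (adjusted p = 0.0774, edgeR), and that of Jak1 with library totals (adjusted p = 0.0734) and without any 1 of Fbp1-deleted replicates 6, 9 and 10 and WT replicates 1, 2 and 5 (adjusted p = 0.07804 to 0.0961).

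Markers of other cells that a piece of liver holds were summed in the same way, and their part in the members' values was not tested. The 8 sinusoidal endothelial markers summed to 269 to 305 CPM in WT and 194 to 299.6 CPM in Fbp1-deleted liver, where replicate 9 was lowest, as it was for F8. Of them 1, Lyve1, rose and 0 fell. The fitted changes of the other 7 were negative, with a median of -0.25 over all 8, and 3 were lower at an unadjusted p under 0.05 (edgeR). The 6 platelet and megakaryocyte markers summed to at most 9.15 CPM in WT and 10.5 CPM in Fbp1-deleted liver, with Gp9 and Gp1bb at 0.243 CPM or less. Of them 1, Ppbp, rose, to 1.67 CPM. The 5 neutrophil markers summed to at most 8.96 CPM, with Ly6g, Mpo and Elane at 0.492 CPM or less. The 8 stellate cell markers summed to 148 to 224 CPM in WT and 195 to 259.7 CPM in Fbp1-deleted liver, with 1 called higher (Dcn). The cholangiocyte (6) and erythroid (5) markers summed to 16.5 to 29.1 and 192 to 347 CPM in WT and to 12.9 to 22.2 and 129.9 to 352 CPM in Fbp1-deleted liver, with 0 called by edgeR or DESeq2. At an unadjusted p under 0.05 there were 3 cholangiocyte and 0 erythroid markers, and limma-voom called 1 and 0. The 5 lymphocyte markers reported here summed to 2.46 to 7.33 CPM in WT and 2.01 to 2.97 CPM in Fbp1-deleted liver, with overlap, and 1 of them (Cd79a) was called lower.

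**Figure D5:**
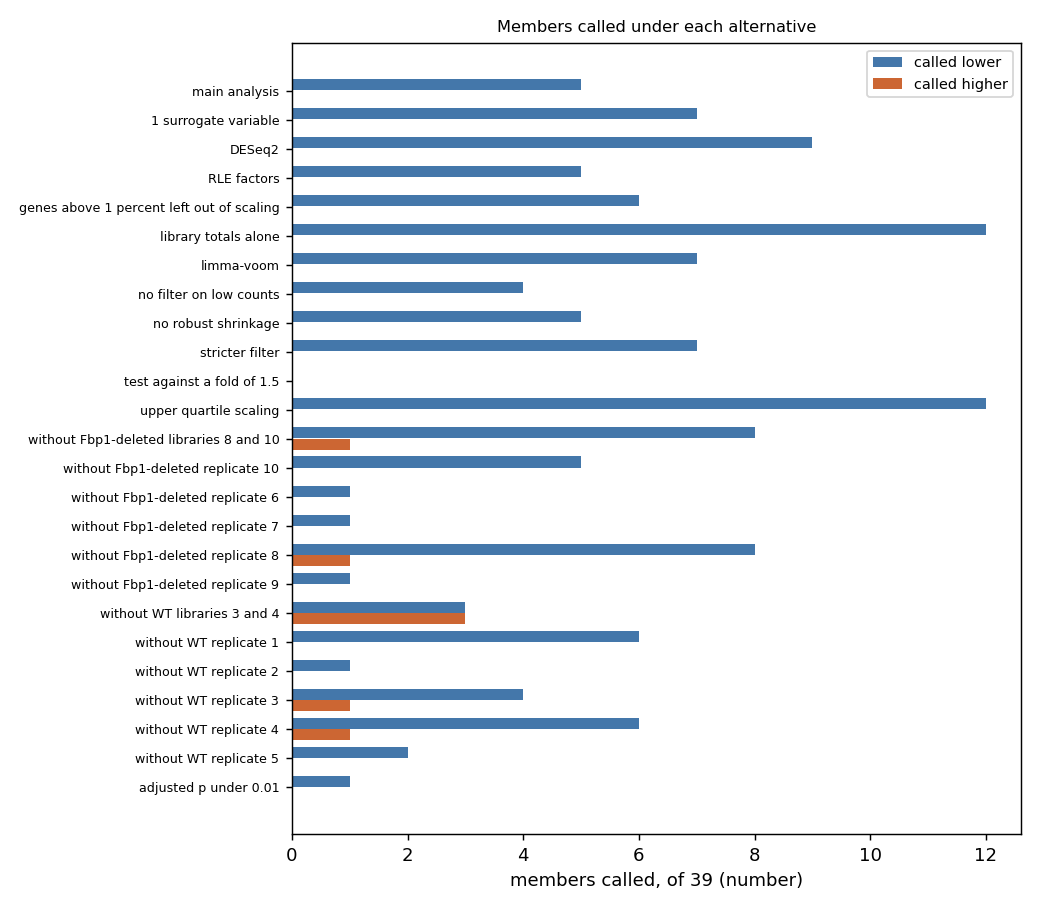
Number of the 39 members called lower (blue) and higher (orange) in the main analysis and under each alternative (vertical axis). Lower calls range from 0, against a fold of 1.5, to 12 with library totals or upper quartile scaling, and higher calls appear only when Fbp1-deleted replicate 8 or WT replicate 3 or 4 is left out.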

How the data were processed

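The authors deposited 1 table of estimated counts per gene for 10 livers. Salmon, CASAVA and the build GRCm38 are named per the submitters' processing notes, without versions, and the series' design text also describes another route with STAR and featureCounts. Total RNA was made into mRNA libraries that do not keep the strand, per the labels' protocols. All values were whole numbers. Whether counts were adjusted for transcript length is not given in the sources used here. Salmon estimates how reads split among similar transcripts, so paralogs and overlapping genes are uncertain: 9 of 39 members share over 10% of their 31-base words with another gene.

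Symbols, positions and transcript lengths came from GENCODE M21 (GRCm38): 52175 identifiers matched with their version, 1180 with another version and 37 not at all. Promoter windows came from RefSeq (GRCm38.p6) and matched 30 members by symbol. The test was that of edgeR 4.0.16 under R 4.3.3 (filterByExpr, TMM, robust quasi-likelihood F test, no covariate), with Benjamini-Hochberg adjustment over 15392 genes. Ratios used 0.5 added to each count. On simulated data for Fbp1-deleted against WT (15038 genes), the same fit recovered 60% of genes changed by 1 on the log2 scale and 9.09% of those changed by 0.5. Only 100 and 99 genes were changed by these amounts, and 8 unchanged genes were called. In the data 20.6% of genes tested were called, so these rates do not give the recovery there.

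Alternatives were RLE factors, upper quartile, library totals, no filter, a filter of 1 CPM in 5 libraries, DESeq2 1.42.0, limma-voom (limma 3.58.1), no robust shrinkage, adjusted p under 0.01, a fold of 1.5, 1 surrogate variable (sva 3.50.0), scaling without the 8 genes that exceed 1% of a library, and leaving out each liver. Pairs of libraries were left out after the data were seen. WT libraries 3 and 4 were chosen for the highest Saa1 and Lcn2, and Fbp1-deleted libraries 8 and 10 as closest to WT. The latter held over the 5 called members, but for replicate 10 not over all 39. Chi-square per degree of freedom between livers of a group was at least 14.2, so no library was a repeat. The series' design text calls the livers biological replicates. Members, lists and tests were chosen with earlier results of these data known. Values in every library are given for called members, F8, Kng1 and Kng2 by a fixed rule, and for Pros1, Fga, C3, C8a, C8b and C9 after their values were seen. From each list the 5 called genes with the smallest adjusted p are named, and some that the rule names are left out here. Colec10, Hrg, Serpina10, Cebpd and the called cell markers stand outside that rule and were named after their values were seen.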

Additional observations from a re-analysis of the deposited data

Results flagged for a closer look

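In 4 of 102 sets of 5 livers examined, 1 liver lay far from the other 4, where chance alone would give about 1 in 20. Serpinf2 in Fbp1-deleted replicate 8 was 889.6 CPM, against 541 to 624.9 CPM in the other 4 Fbp1-deleted livers. C3 in the same liver was 9958 CPM, against 8381 to 8674 CPM. The log2 ratio of C8b to C8a was -0.78 in Fbp1-deleted replicate 10, against -0.49 to -0.43 in the others of its group. The log2 ratio of F2 to Serpinc1 was -0.14 in the same replicate 10, against -0.03 to -0.01.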

How the results depend on the processing

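No paired analysis was possible because the labels give no pairing of WT with Fbp1-deleted livers. Members called lower (5 in the main analysis) numbered 9 with DESeq2, 12 with library totals, 12 with upper quartile scaling, 1 at an adjusted p under 0.01, 0 against a fold of 1.5, 8 without Fbp1-deleted libraries 8 and 10, and 3 without WT libraries 3 and 4. With 1 library left out they numbered 1 to 8. Members called higher (0) numbered 1 without Fbp1-deleted libraries 8 and 10, 3 without WT libraries 3 and 4, and 0 to 1 with 1 library left out. Over all genes, 1636 were called higher and 1542 lower. These were 228 and 214 against a fold of 1.5, and 678 and 633 at an adjusted p under 0.01. With 1 library left out they were 1066 to 2060 and 1019 to 1858. Other clotting genes called higher (2) were 1 against a fold of 1.5 and 4 without WT libraries 3 and 4. Those called lower (5) were 1 against that fold, 3 at an adjusted p under 0.01, 3 without WT libraries 3 and 4, and 3 to 5 with 1 library left out. Other complement genes called higher (1) were 0 with library totals, upper quartile scaling, a fold of 1.5, an adjusted p under 0.01 or without Fbp1-deleted libraries 8 and 10, and 0 to 1 with 1 library left out. Those called lower (8) were 1 against a fold of 1.5, 1 at an adjusted p under 0.01, and 4 to 7 with 1 library left out. Ratios that passed (0) were 0 to 2 with 1 library left out. The summed share of the members fell by 0.80 percentage points, and by 0.64 to 1.03 with 1 library left out. No called gene reversed. C2 was the only member called in 23 of 24 alternatives, the exception being the fold of 1.5. A stricter p threshold and the fold of 1.5 lower counts by construction. Fbp1-deleted libraries 8 and 10 were left out as closest to WT, a choice that itself favours more calls. They were closest over the 5 called members, but over all 39 replicate 10 lay farther from WT than replicates 7 and 9. Without replicate 8 alone 8 members were called lower, and without replicate 10 alone 5. For the other moves, in both directions, the cause was not tested. C6 and F8 had the fewest counts per kb, and whether depth limits them was not tested.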
